A study of Mus musculus with 20 samples.

Results

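The genes described here are the 37 genes of the mouse mitochondrial genome, chosen as every row of the count tables that the GRCm38 annotation places on chrM. They comprise 13 mRNAs, 2 ribosomal RNAs and 22 transfer RNAs. They stand among 47069 genes in the heart table and 53801 genes in the muscle table. RNA was sequenced from 5 hearts and 5 femur muscles of WT C57BL/6N mice and from 5 hearts and 5 femur muscles of Taz-KD mice, with 1 library per animal code and no code shared between the tissues. Taz-KD mice carry the transgene ROSA26H1/tetO-shRNA:TAZ, a doxycycline-inducible short hairpin RNA against Taz, the acyltransferase that remodels the mitochondrial lipid cardiolipin. All 20 mice, WT included, ate chow with 625 mg/kg doxycycline until 20 weeks of age. No group was without doxycycline, so whether it acts on mitochondrial RNA alike in both genotypes cannot be told. The transgene is driven from a locus active in most cell types, and whole tissue was used.

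Mitochondrial DNA is a small circle that encodes a core set of subunits of the respiratory chain and of ATP synthase, together with the ribosomal and transfer RNAs needed to translate them inside the organelle. Both strands are read as long precursors from promoters in the non-coding control region, and the transfer RNAs that punctuate the genes are cut out to release the single RNAs. The heavy-strand precursor carries nearly all mRNAs and both ribosomal RNAs, while the light-strand precursor carries mt-Nd6 and a minority of the transfer RNAs. Heart is among the tissues richest in mitochondria, and mitochondrial transcripts form a large part of its RNA. In these annotations 28 genes are on the heavy-strand transcript and 9 on the light-strand transcript, the latter being mt-Nd6 and 8 transfer RNAs.

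In heart, the calls lay in 4 transfer RNAs between mt-Nd1 and mt-Co1. Their symbols end in the letter of the amino acid they carry: glutamine (mt-Tq), tryptophan (mt-Tw), alanine (mt-Ta) and tyrosine (mt-Ty). Their sequences, with that of the proline transfer RNA mt-Tp at the other end of the light-strand transcript, are shown because the differences between genotypes turn on them. They are read 5′ to 3′ from the GENCODE M21 transcripts of GRCm38, in DNA letters, with the anticodon in capitals.
mt-Tq, chrM:3772-3842, light-strand transcript (−): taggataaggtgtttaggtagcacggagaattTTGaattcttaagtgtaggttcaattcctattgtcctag
mt-Tw, chrM:4950-5016, heavy-strand transcript (+): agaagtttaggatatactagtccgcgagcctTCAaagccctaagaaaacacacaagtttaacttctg
mt-Ta, chrM:5018-5086, light-strand transcript (−): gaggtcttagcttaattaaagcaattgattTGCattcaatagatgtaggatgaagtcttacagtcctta
mt-Ty, chrM:5260-5326, light-strand transcript (−): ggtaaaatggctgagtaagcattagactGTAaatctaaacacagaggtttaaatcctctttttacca
mt-Tp, chrM:15356-15422, light-strand transcript (−): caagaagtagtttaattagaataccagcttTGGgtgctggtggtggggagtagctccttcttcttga
All 22 transfer RNAs are 59 to 75 bases long, shorter than the 150-base reads. A read counted for one of them therefore either came from a short fragment or also covered sequence beside it, in a neighbouring gene or outside any gene. A count may thus stem from unprocessed precursor as well as from the mature transfer RNA. Libraries were made to keep the strand, but whether the counting used it is not given in the sources used here. Without it, reads of a gene and of the opposite strand cannot be told apart.

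Library totals ran from 26963288 to 35301909 counts in heart, with all 5 Taz-KD hearts above all 5 WT hearts, and from 36429399 to 74361382 counts in muscle. Taz (ENSMUSG00000009995) fell from 37.8 ± 1.40 to 11.7 ± 0.731 CPM (counts per 1000000 of the scaled library total; SD, n = 5) in heart and from 51.7 ± 3.42 to 13.4 ± 1.05 CPM (SD, n = 5) in muscle. Taz was lower in 5 of 5 Taz-KD libraries of each tissue (exact two-sided permutation p = 0.00794, the smallest that 252 permutations can give; edgeR adjusted p = 4.08e-09 in heart and 1.86e-06 in muscle). Of 7 cardiac myocyte markers, all 7 passed the low-count filter in heart and none changed by edgeR's adjusted p, with 1 at an unadjusted p under 0.05. All 8 skeletal myofibre markers passed it in muscle. The hearts R2 (Taz-KD) and R3 (WT) bear animal numbers of another series than the other 8.

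The share of all counts on mitochondrial mRNAs overlapped between the genotypes in both tissues. In WT heart it was 9.72% in R3, 11.2% in R1791, 9.93% in R1792, 12.4% in R1795 and 11.3% in R1800. In Taz-KD heart it was 11.8% in R2, 8.89% in R1793, 10.6% in R1796, 9.56% in R1797 and 11.5% in R1798. The ranges overlapped, with R1793 and R1797 below every WT heart and no Taz-KD heart above the highest WT heart. mt-rRNAs took 0.637% to 1.75% of counts in WT hearts and 0.597% to 1.39% in Taz-KD hearts, which also overlapped. Transfer RNAs took the smallest share, 0.0533% to 0.0689% in WT hearts and 0.0256% to 0.0415% in Taz-KD hearts, and here every Taz-KD heart lay below every WT heart. That separation did not hold without mt-Tq, since the other transfer RNAs held 234 to 297 counts per 1000000 of the library total in WT hearts and 156 to 265 in Taz-KD hearts, which overlap. The transfer RNAs other than mt-Tc and the 4 called below held 51.8 to 75.4 in WT hearts and 63.0 to 155 in Taz-KD hearts. In muscle, mRNAs took 11.5% to 18.1% of counts in WT and 10.9% to 17.5% in Taz-KD, and transfer RNAs 0.0203% to 0.0359% and 0.0164% to 0.0304%, with overlap in both classes. These shares are sums over the members and are given with no test. In whole tissue, fewer cells of a type and less RNA per cell cannot be told apart.

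Of the 37 genes, 22 passed the low-count filter in heart: 12 of 13 mRNAs, both ribosomal RNAs and 8 of 22 transfer RNAs. The 4 transfer RNAs printed above from the mt-Nd1 to mt-Co1 interval were lower in Taz-KD in the quasi-likelihood test of edgeR, with p adjusted by Benjamini-Hochberg over all genes, and no transfer RNA was higher. This was 4 of 8 tested transfer RNAs, beside 10.3% of all 19486 genes tested in heart that were lower and 24.6% that changed in either direction. The median log2 fold change of the 8 was -0.42, and that of all genes tested was -0.02. Among 301 tested nuclear genes of at most 150 exonic bases, 12 were lower and 9 higher, with a median log2 fold change of -0.07.

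mt-Tq (ENSMUSG00000064343) was the most abundant transfer RNA of the heart libraries and took 56.1% to 59.9% of the transfer RNA counts in WT. Its level was 277 CPM in R3, 396 in R1791, 327 in R1792, 402 in R1795 and 422 in R1800. In Taz-KD hearts it was 158 CPM in R2, 95.9 in R1793, 172 in R1796, 99.6 in R1797 and 132 in R1798. The highest Taz-KD heart was thus below the lowest WT heart. Fitted expression in Taz-KD was 36.1% of WT (log2 fold change -1.47 ± 0.18 SE, the standard error of the fit, edgeR adjusted p = 0.000189).

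mt-Ta (ENSMUSG00000064347) measured 37.1, 45.6, 40.3, 46.7 and 62.4 CPM in the WT hearts R3, R1791, R1792, R1795 and R1800. It measured 25.4, 19.1, 25.1, 19.2 and 30.3 CPM in the Taz-KD hearts R2, R1793, R1796, R1797 and R1798. The genotypes did not overlap, and Taz-KD was at 51.3% of WT (log2 fold change -0.96 ± 0.16 SE, edgeR adjusted p = 0.00136). mt-Ty (ENSMUSG00000064350), listed in the same order of hearts, measured 95.8, 96.6, 101, 125 and 92.8 CPM in WT and 75.8, 50.4, 70.4, 60.7 and 50.6 CPM in Taz-KD. Its genotypes did not overlap either (log2 fold change -0.73 ± 0.13 SE, edgeR adjusted p = 0.00138).

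mt-Tw (ENSMUSG00000064346) is the member of the 4 that is read from the other strand, with 1 base between it and mt-Ta. It shares 2 bases with mt-Nd2, and mt-Tq shares 3 with mt-Ti. Its levels were 35.8, 54.7, 46.2, 54.98 and 77.1 CPM in WT and 24.3, 20.2, 40.3, 17.05 and 25.9 CPM in Taz-KD, in the same order of hearts. The Taz-KD heart R1796 lay above the WT heart R3, so the genotypes overlapped, and the fit still called it lower (log2 fold change -1.07 ± 0.26 SE, edgeR adjusted p = 0.0128). Without overlap, 3 of the 8 tested transfer RNAs were lower in Taz-KD, beside 7.05% of all genes tested in heart. Each of the 4 was called under all 22 alternatives run in heart.

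**Figure D1:**
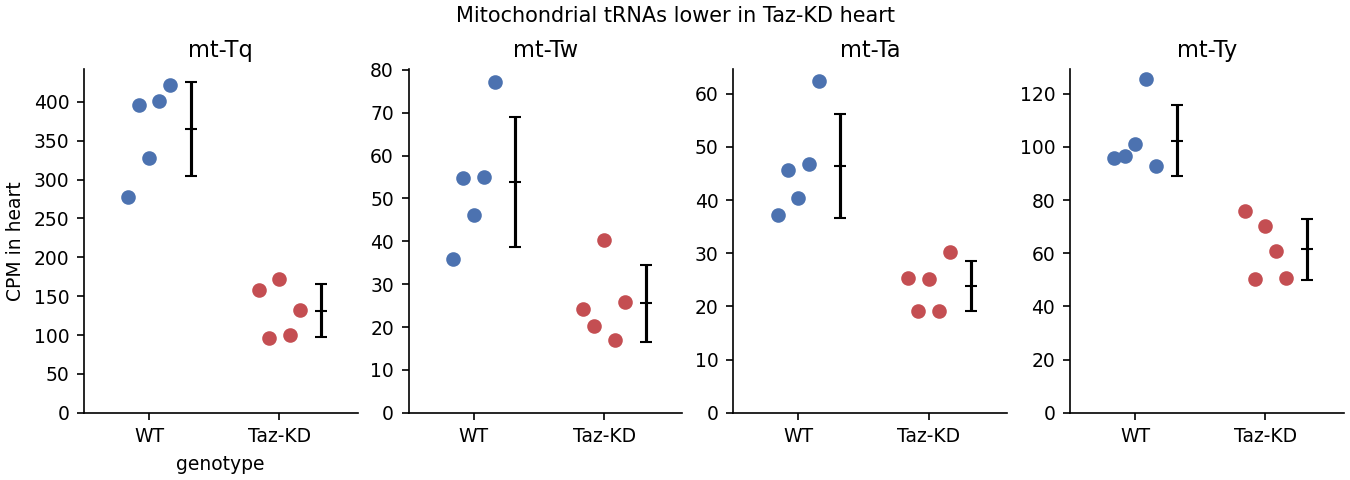
CPM of the glutamine, tryptophan, alanine and tyrosine transfer RNAs of the mitochondrial genome in each heart, with 5 WT points in blue and 5 Taz-KD points in red, and the mean ± SD in black beside each group. For mt-Tq the Taz-KD hearts lie between 95.9 and 172 CPM and the WT hearts between 277 and 422 CPM, and only mt-Tw overlaps between genotypes.

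Other lists moved in the same hearts, in which 14.4% of all genes tested were higher and 10.3% lower. Among RNAs without a poly(A) tail, 3 of 7 tested were higher in Taz-KD and none lower, and their summed level was 11129 to 12505 CPM in WT and 12088 to 15336 CPM in Taz-KD. Among erythroid and marrow markers 3 of 5 tested were lower (summed level 421 to 741 CPM in WT and 289 to 457 CPM in Taz-KD), among endothelial markers 3 of 6 (730 to 901 CPM and 614 to 754 CPM), and among slow and oxidative fibre markers 3 of 5 (7812 to 10313 CPM and 5217 to 6866 CPM). Of 5 tested skeletal myofibre markers 1 was higher, Acta1, the skeletal actin (log2 fold change 1.82 ± 0.57 SE, edgeR adjusted p = 0.0464). The summed fast glycolytic fibre markers were low, at 1.47 to 2.09 CPM in WT and 1.05 to 1.38 CPM in Taz-KD, without overlap. No defining marker of the erythroid, endothelial or slow-fibre lists was at 0 in all hearts. The part of these lists in the transfer RNA result was not tested.

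The other 4 tested transfer RNAs were not called. mt-Te (glutamate) measured 14.7, 19.2, 17.4, 21.9 and 20.5 CPM in the WT hearts and 26.7, 19.9, 32.4, 19.4 and 36.9 CPM in the Taz-KD hearts (log2 fold change 0.53 ± 0.18 SE, edgeR adjusted p = 0.0563). It passed the threshold with DESeq2 (adjusted p = 0.0230) and under 5 other alternatives of the 22. mt-Tp (proline) measured 29.2, 37.1, 29.9, 48.7 and 32.6 CPM in WT and 74.1, 33.7, 35.6, 36.8 and 113 CPM in Taz-KD, so that R2 and R1798 stood above all other hearts (log2 fold change 0.72 ± 0.36 SE, edgeR adjusted p = 0.188). mt-Ts1 (serine, log2 fold change 0.29) and mt-Tt (threonine, -0.11) had at most 273 counts in a heart, with edgeR adjusted p = 0.629 and 0.778. mt-Tt lies on the heavy-strand transcript, and the other 3 on the light-strand transcript.

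Read along the light-strand transcript, the differences fell from one end to the other. Light-strand transcription leaves the control region beyond mt-Tp and meets mt-Tp first, then mt-Te, mt-Nd6, mt-Ts1, mt-Ty, mt-Ta and, last, mt-Tq. In that order the log2 fold changes in heart were 0.72, 0.53, 0.34, 0.29, -0.73, -0.96 and -1.47, each below the one before it. Spearman's rho between order and fold change was -1 over these 7 genes, which share the same 10 libraries and are not independent. This order was looked at after the values were known and carries no test. The other light-strand genes, mt-Tc and mt-Tn, fall between mt-Ty and mt-Ta and were not tested in heart. Standard errors were 0.36 for mt-Tp, 0.18 for mt-Te, 0.24 for mt-Nd6 and 0.38 for mt-Ts1, larger than the steps between these genes. Of the heavy-strand transfer RNAs, mt-Tw beside mt-Ta was at -1.07 and mt-Tt beside mt-Tp at -0.11. A lower value was thus also seen for a gene annotated on the heavy-strand transcript. Whether the mt-Tw reads came from that strand is not known, since use of the strand in counting is not given.

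The fall at every step was present in 17 of 22 alternatives, and rho ran from -1 to -0.893. These alternatives reuse the same hearts and are not separate evidence for the order. Without R1798 the log2 fold change of mt-Tp was 0.34, that of mt-Te 0.39 and that of mt-Nd6 0.10, and without R3 that of mt-Ts1 was 0.072, while that of mt-Tq was -1.47 without R1798. The ratio of mt-Tq to mt-Tp counts, chosen after the values were seen, needs no scaling between libraries. It was 9.50 in R3, 10.7 in R1791, 10.9 in R1792, 8.24 in R1795 and 12.96 in R1800. In Taz-KD it was 2.13 in R2, 2.85 in R1793, 4.85 in R1796, 2.71 in R1797 and 1.17 in R1798. Every Taz-KD heart was below every WT heart, with means of 10.5 ± 1.76 and 2.74 ± 1.35 (SD, n = 5). The mt-Tq to mt-Nd6 ratio, chosen in the same way, likewise did not overlap, at 0.202 to 0.238 in WT and 0.0380 to 0.0835 in Taz-KD. The CPM of mt-Tq by itself already did not overlap, so the ratios are a description.

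**Figure D2:**
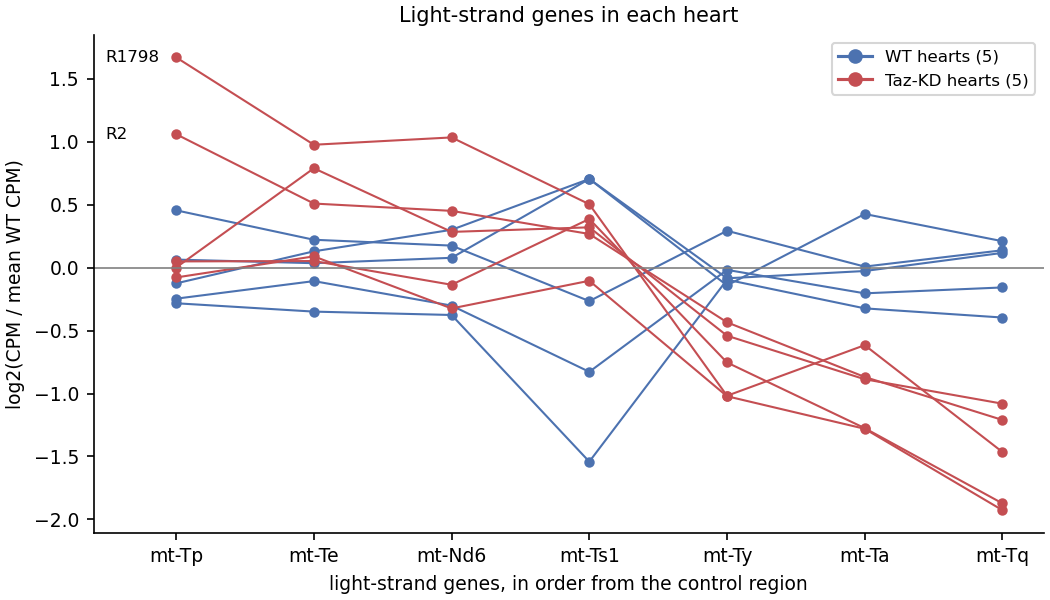
Level of the 7 tested light-strand genes in each heart, as log2 of the CPM over the mean WT CPM, with genes in the order in which transcription from the control region reaches them. Lines are single hearts, 5 WT in blue and 5 Taz-KD in red. The genotypes overlap for mt-Tp, where the Taz-KD hearts R1798 and R2 are highest, and the Taz-KD hearts lie below all WT hearts for mt-Ty, mt-Ta and mt-Tq.

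Most transfer RNAs of the heavy-strand transcript had almost no counts in heart. Of 14 such genes, 2 were tested (mt-Tw and mt-Tt), against 6 of 8 on the light-strand transcript. Leaving mt-Tc aside, the 13 untested transfer RNAs had at most 7 counts in any heart, and 7 of them were at 0 in all 10 hearts. A count of 0 allows up to 3 counts, or 0.111 CPM by the total of the smallest heart library, and covers counting error only. mt-Tc (cysteine) had 1380 counts in the Taz-KD heart R2 and 0 in the other 9 hearts.

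None of the 12 tested mRNAs was called in heart by edgeR, and 1 had an unadjusted p under 0.05. DESeq2 called 1, mt-Co1, beside 27.4% of all genes, and limma-voom called 0. The log2 fold changes ran from -0.44 to 0.34 with a median of 0.09, 8 above 0 and 4 below. No tested mRNA was without overlap between genotypes in CPM, beside 18.3% of all genes tested in heart. mt-Atp8, a subunit of ATP synthase, had 0 to 3 counts per heart and failed the filter.

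mt-Co1, the catalytic core subunit of cytochrome c oxidase (complex IV), was the most abundant mitochondrial mRNA per length in both tissues. It measured 52590, 61259, 55432, 69534 and 61785 CPM in the WT hearts and 58781, 43485, 53230, 46751 and 46502 CPM in the Taz-KD hearts, in the order of hearts used above. R2 and R1796 lay within the WT range and the other 3 below it (log2 fold change -0.27 ± 0.11 SE, edgeR adjusted p = 0.0973). The adjusted p was 0.0284 with DESeq2, 0.0182 with library sizes alone, 0.0460 without R2 and 0.0214 without R2 and R3. The other complex IV subunits gave log2 fold changes of 0.03 for mt-Co2 (edgeR adjusted p = 0.944) and -0.26 for mt-Co3 (0.564).

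The 7 complex I subunits, which form the membrane arm of NADH dehydrogenase, spread around 0. mt-Nd5 measured 8995, 11671, 10039, 13514 and 13097 CPM in WT and 16829, 10592, 13923, 11413 and 19779 CPM in Taz-KD, with R2, R1796 and R1798 above every WT heart (log2 fold change 0.34 ± 0.18 SE, edgeR adjusted p = 0.188). mt-Nd6, the light-strand mRNA, was highest in R1798 at 3476 CPM and otherwise 1307 to 2319 CPM (log2 fold change 0.34 ± 0.24 SE, edgeR adjusted p = 0.347). The log2 fold changes were 0.20 for mt-Nd1, 0.08 for mt-Nd2, -0.09 for mt-Nd3, -0.44 for mt-Nd4l and 0.10 for mt-Nd4, with standard errors of 0.20, 0.20, 0.18, 0.68 and 0.15. mt-Nd2 and mt-Nd4 changed sign without R2 and R3. mt-Cytb, the complex III subunit, and mt-Atp6, the proton channel subunit of ATP synthase, had values of 0.15 ± 0.14 and 0.13 ± 0.28 (standard error).

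**Figure D3:**
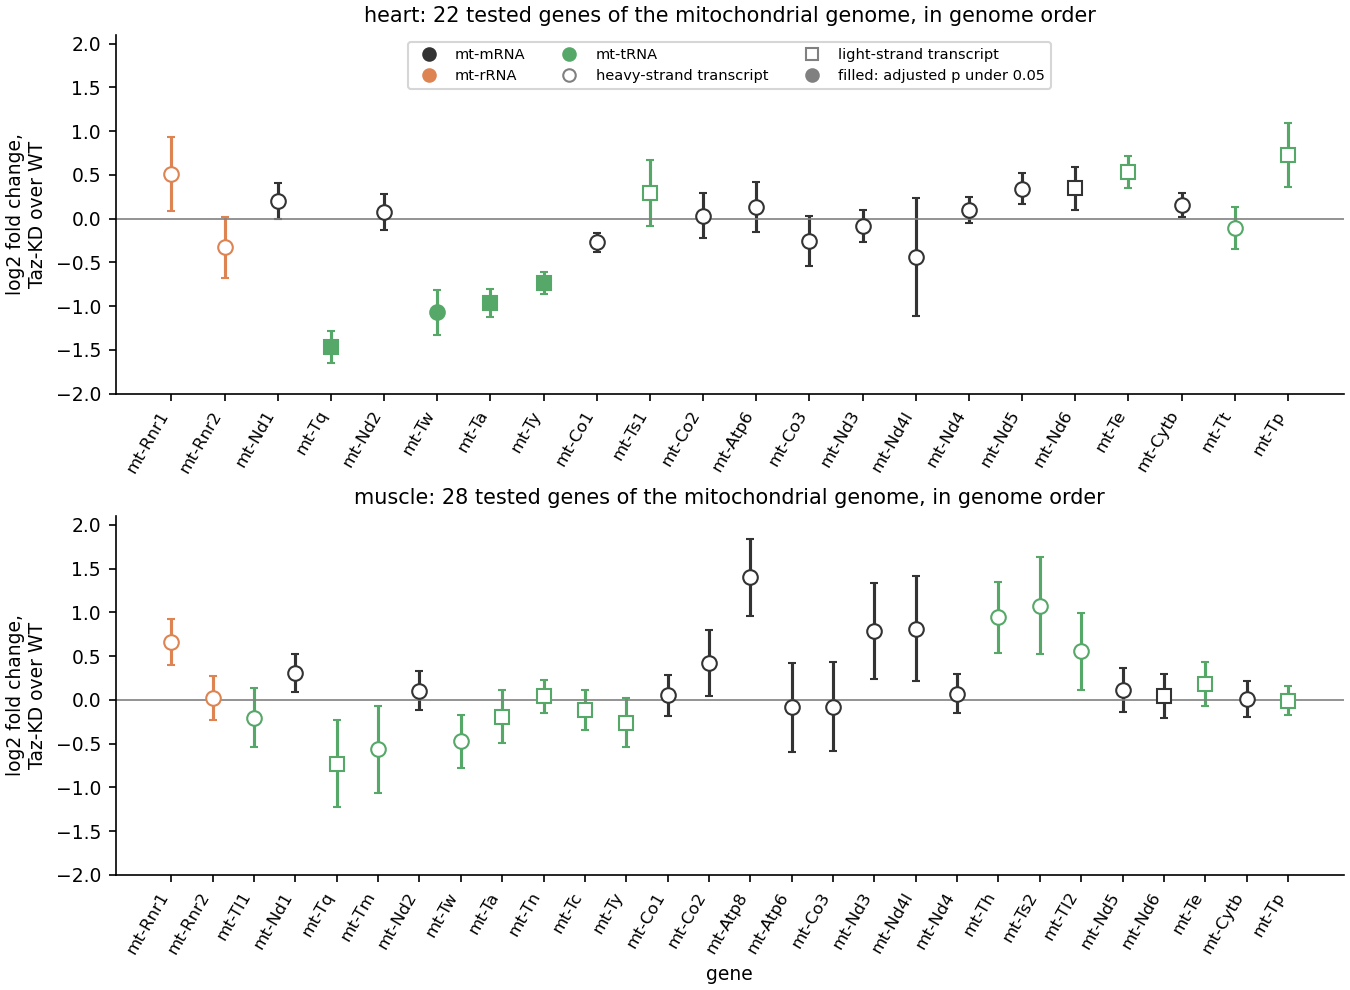
Log2 fold change of Taz-KD over WT, with its standard error, for the members that passed the low-count filter in heart (top, 22 genes) and muscle (bottom, 28 genes), in the order of the genome. Circles are heavy-strand and squares light-strand transcripts, and filled symbols passed an adjusted p of 0.05, which in heart are mt-Tq, mt-Tw, mt-Ta and mt-Ty and in muscle none.

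Within the mitochondrial mRNA pool the genotypes separated for 3 mRNAs. Within the summed counts of the 13 mRNAs, mt-Co1 took 58.4% in R3, 54.2% in R1791, 56.8% in R1792, 54.6% in R1795 and 52.5% in R1800. It took 47.4% in R2, 50.8% in R1793, 48.7% in R1796, 51.5% in R1797 and 39.1% in R1798. Every Taz-KD heart was below every WT heart, and R1798 was farthest away. The share of mt-Nd5 was higher in Taz-KD, at 10.00% to 11.1% in WT and 12.4% to 16.6% in Taz-KD, and so was that of mt-Cytb, at 10.0% to 10.6% and 11.3% to 12.7%.

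The shares of 3 of 13 mRNAs thus did not overlap, beside 8.05% of all genes tested in heart when counts are divided by the same sum. The shares add up to 100%, so a lower share of mt-Co1 raises the others. Among mRNAs other than mt-Co1, the mt-Nd5 share still did not overlap (22.5% to 24.0% in WT and 24.9% to 27.3% in Taz-KD), whereas the mt-Cytb share did overlap (22.1% to 24.2% in WT and 20.9% to 24.4% in Taz-KD). When the summed mitochondrial mRNA served as library size, edgeR called mt-Nd5 higher (log2 fold change 0.38 ± 0.10 SE, adjusted p = 0.0152) and not mt-Co1 (-0.22 ± 0.09 SE, adjusted p = 0.137), beside 8.82% of all genes called in that fit. The shares were looked at after the values were known, and their ranges are a description.

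**Figure D4:**
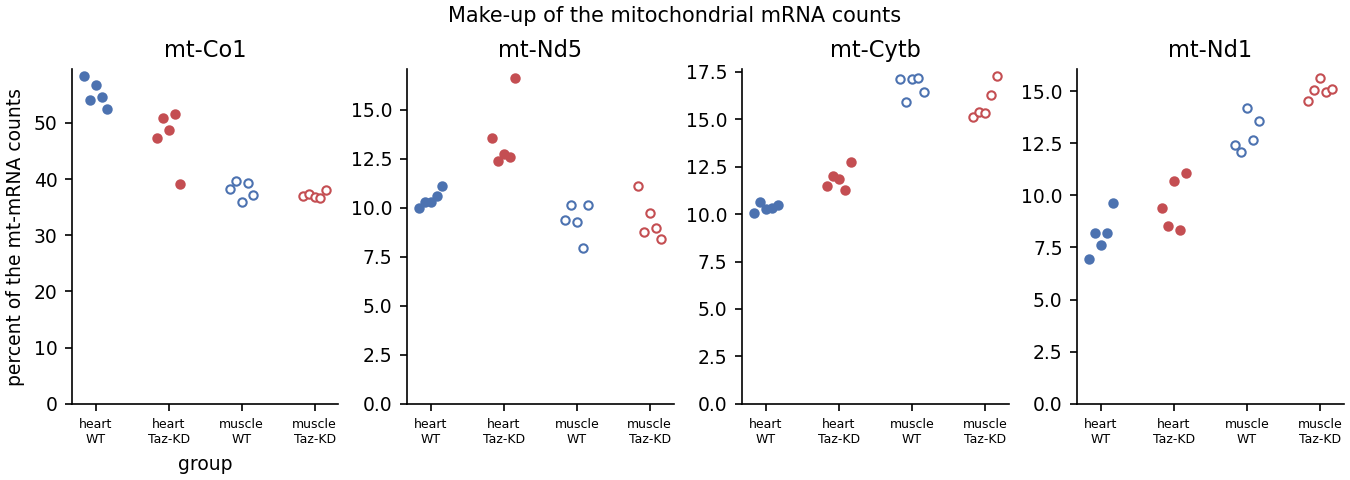
Percent of the summed mitochondrial mRNA counts that fell on mt-Co1, mt-Nd5, mt-Cytb and mt-Nd1 in each library, with WT in blue, Taz-KD in red, heart filled and muscle open. In heart the Taz-KD libraries lie below the WT libraries for mt-Co1 (39.1% to 51.5% against 52.5% to 58.4%) and above them for mt-Nd5, and in muscle only mt-Nd1 of these 4 separates the genotypes.

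Levels of the mRNAs fell into separate ranges that went with copies of mitochondrial DNA in the nucleus. Nuclear copies are insertions of mitochondrial sequence, and reads that match both places cannot be placed with certainty. Of the 150-base windows of each mRNA, 99.4% for mt-Co2, 99.4% for mt-Atp6, 99.8% for mt-Co3, 97.0% for mt-Nd3 and 98.0% for mt-Nd4l occur base for base in an annotated nuclear transcript, against 59.2% for mt-Nd4, 23.6% for mt-Co1 and 0 for mt-Nd1, mt-Nd2, mt-Nd5, mt-Nd6 and mt-Cytb. The first 5 measured 122 to 413 CPM per kilobase in WT heart, and the last 7 measured 3268 to 38913 CPM per kilobase. In WT muscle the ranges were 29.9 to 715 and 7156 to 34346 CPM per kilobase. mt-Atp8, with no such window in an annotated transcript, was lower still at 0.209 CPM per kilobase in WT heart and 16.7 in WT muscle. Gm10925 (ending at chr1:24614651) and Gm28661 (starting at chr1:24614885), the copies of its neighbours mt-Atp6 and mt-Co2, leave a stretch between them. Only annotated transcripts were searched, so a copy of mt-Atp8 in that stretch is not covered. mt-Atp8 shares bases with mt-Atp6, and how reads over 2 genes or several places were counted is not given in the sources used here.

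The copies of these mRNAs lie side by side on chromosome 1, from Gm28439 (chr1:24611535-24612410) to Gm29216 (chr1:24615706-24616197), all on the minus strand. Over their 681 common bases mt-Co2 and Gm28661 do not differ, and over 345 bases mt-Nd3 and Gm28438 differ at 1 base, T3C, counted from 1 at the first base of mt-Nd3. The stretch that holds it is shown in transcript direction on GRCm38, with the differing base in capitals, because it is all that separates the copies over that length.
mt-Nd3, chrM:9459-9490 (+): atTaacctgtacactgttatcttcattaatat
Gm28438, chr1:24613088-24613119 (−): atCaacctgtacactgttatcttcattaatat
Gm28661 had 1640 to 3221 counts per heart and 5166 to 15585 per muscle, and Gm28438 had 1306 to 1987 and 751 to 1997. Values of mt-Co2, mt-Atp6, mt-Co3, mt-Nd3 and mt-Nd4l are therefore uncertain as measures of the mitochondrial transcript, and those of mt-Nd4 and mt-Co1 in part. For mt-Atp8 this is not known, because only annotated transcripts were searched. The 7 mRNAs with under 90% shared windows, mt-Atp8 left aside, held 99.0% to 99.4% of the mitochondrial mRNA counts in WT heart. With mt-Co1 counted only against mRNAs without such windows, its share was 57.1% to 63.1% in WT and 43.0% to 56.3% in Taz-KD, without overlap. The mt-Co1 counts themselves are the same in this share and only the denominator differs, so it is a description and not a separate check.

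**Figure D5:**
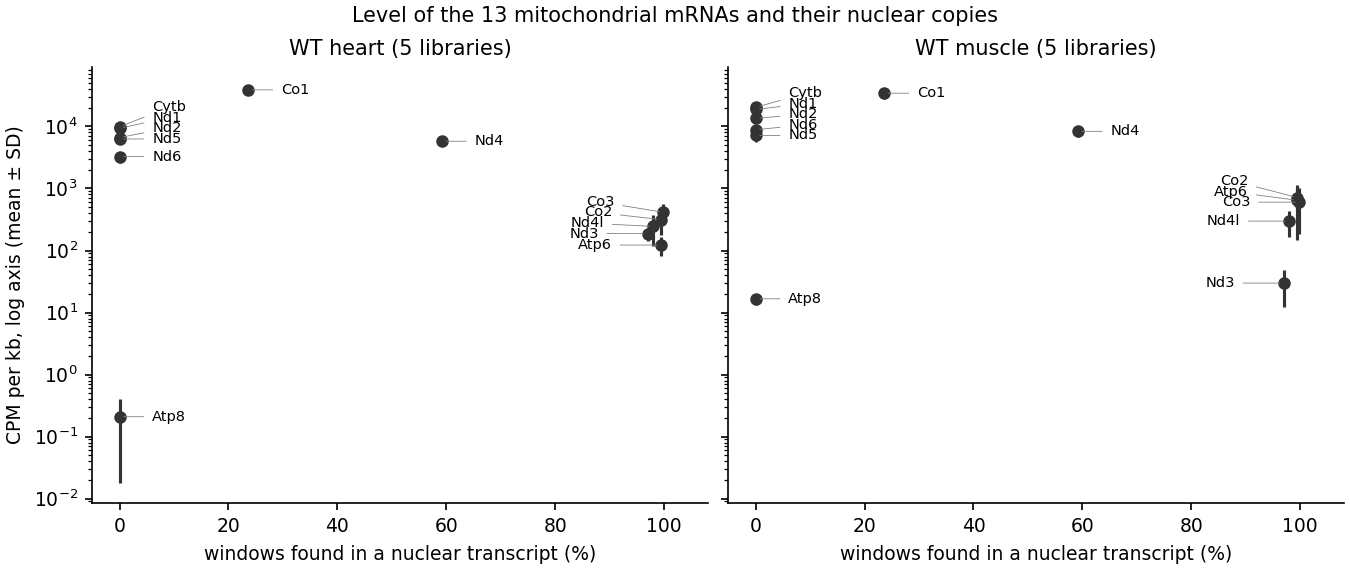
Mean CPM per kilobase ± SD over 5 WT libraries (log axis; heart left, muscle right) of the 13 mitochondrial mRNAs, named without their prefix, against the percent of their 150-base windows that occur in an annotated nuclear transcript. In heart the 5 mRNAs at 97.0% or more lie between 122 and 413 CPM per kilobase, and the 7 others apart from Atp8 between 3268 and 38913.

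Neither ribosomal RNA was called in heart, was at an unadjusted p under 0.05 or called by DESeq2 or limma-voom. mt-Rnr2, the RNA of the large mitochondrial ribosomal subunit, measured 5878, 14668, 8158, 10178 and 18192 CPM in WT and 9812, 5775, 14298, 5648 and 9959 CPM in Taz-KD (log2 fold change -0.33 ± 0.35 SE, edgeR adjusted p = 0.546). mt-Rnr1, the RNA of the small subunit, was far lower at 19.3 to 47.2 CPM in WT and 19.5 to 93.9 CPM in Taz-KD, with R1798 highest (log2 fold change 0.51 ± 0.43 SE, edgeR adjusted p = 0.436). Without R1798 the value of mt-Rnr1 was 0.043, and without R1800 that of mt-Rnr2 was -0.096. Ribosomal RNA was removed before library preparation, so these values are what was left after it. The mt-Rnr2 to mt-Rnr1 ratio was 304 to 506 in WT hearts and 106 to 345 in Taz-KD hearts.

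In muscle no mitochondrially encoded gene was called. The filter kept 28 of 37: all 13 mRNAs, both ribosomal RNAs and 13 transfer RNAs. The count of 0 by edgeR stands beside 0.0186% of all 16145 genes tested in muscle, or 3 genes. At an unadjusted p under 0.05 there were 3 of 28 members, beside 14.9% of all genes, and DESeq2, which called 0.892% of all genes, and limma-voom called 0 members. No tested member was without overlap in CPM, beside 2.14% of all genes. Median log2 fold changes were 0.11 for mRNAs and -0.11 for transfer RNAs, and -0.02 for all genes tested. With library sizes alone the median of all genes moved to -0.16.

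These members, given as values that did not pass the test, were mt-Atp8, mt-Rnr1 and the histidine transfer RNA mt-Th. mt-Atp8 measured 2.22, 3.76, 3.76, 3.205 and 4.06 CPM in the WT muscles A33, A40, A51, A55 and A57 and 17.96, 3.77, 13.2, 6.33 and 3.67 CPM in the Taz-KD muscles A34, A39, A52, A56 and A58. A34, A52 and A56 lay above every WT muscle, and A39 and A58 within the WT range (log2 fold change 1.40 ± 0.44 SE, edgeR adjusted p = 0.311). Whether mt-Atp8 reads also match an unannotated nuclear copy was not examined. mt-Rnr1 measured 540, 469, 455, 790 and 816 CPM in WT and 984, 1227, 541, 1271 and 816 CPM in Taz-KD (log2 fold change 0.66 ± 0.26 SE, edgeR adjusted p = 0.316). mt-Th measured 0.647 to 2.17 CPM in WT and 1.35 to 5.11 CPM in Taz-KD (log2 fold change 0.94 ± 0.41 SE, edgeR adjusted p = 0.328).

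In WT muscle mt-Rnr1 and mt-Rnr2 were at 643 and 625 CPM per kilobase, and in WT heart at 32.8 and 7215. mt-Rnr2 measured 709 to 1429 CPM in WT and 560 to 1182 CPM in Taz-KD (log2 fold change 0.02). The mt-Rnr2 to mt-Rnr1 ratio, chosen after the values were seen, was 1.54, 1.83, 1.56, 1.81 and 1.37 in WT and 1.17, 0.964, 1.04, 0.927 and 1.15 in Taz-KD, in the order of muscles used above. The genotypes did not overlap in this ratio.

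The muscle mRNAs with few nuclear copies had log2 fold changes from 0.01 for mt-Cytb to 0.31 for mt-Nd1, with mt-Co1 at 0.05, mt-Nd2 at 0.11, mt-Nd4 at 0.07, mt-Nd5 at 0.11 and mt-Nd6 at 0.04, each with a standard error of 0.21 to 0.25. Those of the copied mRNAs were -0.09 for mt-Atp6, -0.08 for mt-Co3, 0.42 for mt-Co2, 0.79 for mt-Nd3 and 0.81 for mt-Nd4l, with standard errors of 0.38 to 0.60. Within the mRNA pool mt-Co1 took 36.01% to 39.6% in WT and 36.6% to 38.0% in Taz-KD, and mt-Nd5 7.94% to 10.2% and 8.42% to 11.1%. Both overlapped. The share of mt-Nd1 was 12.4%, 12.1%, 14.2%, 12.6% and 13.6% in WT and 14.5%, 15.1%, 15.6%, 14.9% and 15.1% in Taz-KD. It was the only 1 of 13 shares without overlap in muscle, beside 0.316% of all genes divided by the same sum.

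The transfer RNAs of highest level in muscle were other ones than in heart, although 6 were tested in both tissues. The 4 of highest level in WT muscle were mt-Tp (120 ± 17.03 CPM), mt-Tc (71.8 ± 14.0), mt-Tn (asparagine, 42.9 ± 8.03) and mt-Te (17.4 ± 5.88; SD, n = 5). None of them was called, with log2 fold changes from -0.11 to 0.18 and edgeR adjusted p from 0.707 to 0.980. mt-Tq, at 365 CPM in WT heart, was at 0.436 ± 0.211 CPM (SD, n = 5) in WT muscle, where it had 27, 28, 5, 29 and 17 counts, and 22, 13, 16, 22 and 3 counts in Taz-KD. mt-Tn had 0 to 3 counts per heart and 1461 to 3339 per muscle. The tables were scaled separately. Rn7sk, a nuclear RNA without a poly(A) tail, was at 8932 CPM in WT heart and 0.281 CPM in WT muscle. The listed RNAs without a poly(A) tail summed to 11129 to 12505 CPM in WT heart and 194 to 272 CPM in WT muscle. Levels therefore cannot be compared between the tissues as such, and whether library preparation was the same in both was not tested.

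The 4 transfer RNAs that were lower in heart had log2 fold changes in muscle of -0.73 for mt-Tq, -0.48 for mt-Tw, -0.19 for mt-Ta and -0.26 for mt-Ty, with standard errors of 0.49, 0.31, 0.30 and 0.28. The difference of the effect, muscle minus heart, was 0.82 ± 0.47 for mt-Tq, 0.66 ± 0.40 for mt-Tw, 0.87 ± 0.32 for mt-Ta and 0.54 ± 0.31 for mt-Ty (standard error; edgeR adjusted p = 0.347, 0.379, 0.135 and 0.351). No member was called for this difference by edgeR, beside 4.62% of 20612 genes tested. At an unadjusted p under 0.05 were 4 of 15 transfer RNAs, no mRNA and no ribosomal RNA, beside 19.7% of all genes. Of these 4, mt-Ta alone had passed the low-count filter in both tissues. mt-Tc and mt-Th had failed it in heart and mt-Tt in muscle, and 6 transfer RNAs in all had passed it in both. DESeq2 called 1 transfer RNA, mt-Tc, which among the hearts had counts in R2 alone, and limma-voom none. The drop of the transfer RNAs was therefore not shown to differ between tissues. Along the light-strand order, rho was -0.64 over 8 genes in muscle, without a fall at every step. Under 20 alternatives it ran from -0.76 to -0.48, and 0 of them fell at every step. mt-Tq was lowest, on 3 to 29 counts per muscle.

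In muscle libraries, markers of other tissue components varied between animals: the summed adipocyte markers ran from 206 to 2920 CPM in WT and from 165 to 350 CPM in Taz-KD, and the slow and oxidative fibre markers from 2841 to 25946 CPM and from 732 to 7428 CPM. No marker of either list was at 0 in all muscles, and their part in the muscle values was not tested.

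The nuclear genes that serve the mitochondrial genome or share its complexes were compared in the same fit. Over the 10 lists, 47 of 181 tested genes changed in heart, or 26%, beside 24.6% of all genes in either direction, 14.4% higher and 10.3% lower, so the lists as a whole were close to the background. In heart, 1 of 12 genes of mitochondrial transcription was lower and none higher (median log2 fold change -0.02): Mterf2, a member of the transcription termination factor family, at -0.40 (edgeR adjusted p = 0.0307). The polymerase Polrmt (-0.07, edgeR adjusted p = 0.527), the elongation factor Tefm (-0.07, 0.681) and the packaging factor Tfam (-0.17, 0.0977) were not called. Of 22 genes of mitochondrial RNA processing and turnover, 5 were higher and none lower (median 0.09). They included Elac2, which cuts the 3′ ends of transfer RNAs, from 23.8 ± 1.06 to 29.3 ± 2.80 CPM (SD, n = 5; log2 fold change 0.31, edgeR adjusted p = 0.00837), Rexo2, an exonuclease of short RNAs (0.58, 0.00157), Grsf1, an RNA-binding protein of mitochondrial RNA granules (0.22, 0.0177), and Pde12, which removes poly(A) tails (0.35, 0.0181). Lrpprc and Slirp, which stabilise mitochondrial mRNAs, were at 0.03 (edgeR adjusted p = 0.755) and 0.14 (0.263).

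Of 26 genes that modify mitochondrial transfer and ribosomal RNAs, 6 were higher and 3 lower in heart (median 0.05). Osgepl1, which modifies a base beside the anticodon, fell from 25.5 ± 2.01 to 17.4 ± 2.07 CPM (SD, n = 5; log2 fold change -0.55, edgeR adjusted p = 0.000747). The pseudouridine synthase Pus1 (0.52, edgeR adjusted p = 0.00395), the RNA methyltransferase Nsun2 (0.33, 0.00214) and Trnt1, which adds the CCA end to transfer RNAs (0.33, 0.0116), rose. Among 21 genes of mitochondrial DNA replication and nucleotide supply 4 were higher and 3 lower, and among 16 translation factors 1 was higher and 2 were lower. Tufm, the elongation factor that brings aminoacylated transfer RNAs to the mitochondrial ribosome, fell from 128 ± 9.78 to 93.9 ± 6.80 CPM (SD, n = 5; log2 fold change -0.45, edgeR adjusted p = 0.000509). Endog, a nuclease of the intermembrane space (-0.38, 0.00426), and Mpv17, an inner-membrane protein needed for mitochondrial DNA maintenance (-0.41, 0.00429), also fell.

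The nuclear subunits of the same complexes were counted beside the mitochondrial ones. Of 36 nuclear subunits of complex I, 10 were lower and none higher (median log2 fold change -0.14), with Ndufs1 at -0.47 (edgeR adjusted p = 0.00216). Of 7 mitochondrial complex I mRNAs 0 were called. Their standard errors, from 0.15 for mt-Nd4 to 0.68 for mt-Nd4l, were each above the size of that median, and that of Ndufs1 was 0.09. A difference between nuclear and mitochondrial subunits was not tested. Of 9 complex III subunits 2 were lower, Uqcrfs1, the Rieske iron-sulphur protein, at -0.54 (edgeR adjusted p = 4.02e-05) and Uqcr11 at -0.43 (0.0142). Of 14 complex IV subunits 3 were higher and 3 lower. The paired isoforms moved apart, with Cox8a at 0.97 (edgeR adjusted p = 2.57e-06) and the muscle-type Cox8b at -1.01 (7.96e-06), and Cox7a1, a heart and muscle isoform, was at -1.11 (0.000133). Of 15 tested complex V genes 1 was higher, the inhibitory factor Atpif1 (0.80, edgeR adjusted p = 0.00448), and 2 were lower.

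Among 10 coactivators and factors of mitochondrial biogenesis, Ppara, a receptor that drives genes of fatty acid oxidation, was lower in heart (log2 fold change -0.52, edgeR adjusted p = 0.0156). The coactivator Ppargc1a was at -0.16 (0.576). In muscle no gene of any of these 10 lists was called by edgeR, with 6 genes at an unadjusted p under 0.05, and the list medians ran from -0.03 to 0.12. DESeq2 called 1 of these 179 genes in muscle, the complex I subunit Ndufa12, and limma-voom called 0.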

How the data were processed

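Whole-transcriptome libraries of 20 mouse tissues, 5 per genotype and tissue, were analysed, with groups taken from the labels. The authors mapped 150-base paired reads to GRCm38 with STAR (default settings), counted them per gene with featureCounts 1.6.4 and deposited unnormalized counts, in 1 table per tissue. Strand, multi-mapping and overlap settings used in counting were not stated in the paper, the labels or the tables.

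Counts were tested per tissue with edgeR 4.0.16 in R 4.3.3 (TMM factors, filterByExpr by genotype, robust quasi-likelihood test, Benjamini-Hochberg over all genes tested, threshold 0.05), and the difference between tissues as an interaction over all 20 libraries. The study used DESeq2, which was run here (1.42.0) as an alternative, as were limma-voom (3.58.1), other scalings and filters, and leaving out libraries. The other denominators of the mt-Co1, mt-Nd5 and mt-Cytb shares were chosen after seeing the data. Levels are counts per 1000000 (CPM) of the TMM-scaled library total. Sums, shares and ratios carry no test. Scripts were tested on simulated data. Gene symbols, positions and sequences come from GENCODE M21. Members and gene lists were chosen with earlier results of these data known. All mitochondrial mRNAs and rRNAs were named, tRNAs that were called or among the 4 of highest mean CPM in a tissue, and the nuclear list genes of smallest p. Others named were chosen after their values were seen. Labels do not say whether libraries of a group are from separate litters, and p-values measure the spread between these animals. No 2 libraries held identical counts. Not every nuclear gene that this rule selects is reported here.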

Additional observations from a re-analysis of the deposited data

Results flagged for a closer look

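Of 103 groups of 5 values examined, 10 held a library far from the other 4 of its group, where chance alone gives about 1 in 20, or 5.2. In heart, mt-Tc was at 42.9 CPM in the Taz-KD heart R2 and at 0 in the other Taz-KD hearts. The WT heart R1795 had 125 CPM of mt-Ty (others 92.8 to 101) and 382 CPM of mt-Co2 (others 140 to 195). In Taz-KD muscle, mt-Tn was at 26.2 CPM in A52 (others 45.8 to 53.6), mt-Nd3 at 49.1 CPM in A56 (others 6.46 to 12.9) and mt-Tl2, a leucine transfer RNA, at 3.24 CPM in A34 (others 1.13 to 1.67). In WT muscle, mt-Atp6 was at 1029 CPM in A57 (others 186 to 377), mt-Nd3 at 21.4 CPM in A55 (others 7.29 to 7.95), mt-Nd4l at 157 CPM in A51 (others 63.1 to 77.4) and mt-Tp at 90.2 CPM in A51 (others 122 to 134). Of these, mt-Co2, mt-Atp6, mt-Nd3 and mt-Nd4l are mRNAs with near-identical nuclear copies.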

How the results depend on the processing

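The 4 transfer RNAs lower in heart, the absence of calls among ribosomal RNAs and in muscle, and Taz kept their side of the threshold under every alternative run. For heart mRNAs, 1 was lower (mt-Co1) with DESeq2, with library sizes alone and without the hearts R2 and R3, 0 to 1 when single libraries were left out (1 without R2), and 1 was higher (mt-Nd5) with the summed mitochondrial mRNA as library size. For heart transfer RNAs, 1 was higher with DESeq2, library sizes alone, the summed mitochondrial mRNA or no robust dispersion (mt-Te) and in a single fit of all 20 libraries (mt-Tc), and 0 to 1 when single libraries were left out (1 without R1793 or R1797). DESeq2 called 1 transfer RNA for the difference between tissues (mt-Tc). mt-Tc had 1380 counts in the heart R2 and none in any other heart. The cause of these changes was not tested.

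The following log2 fold changes, none of them called, changed sign. Without R2 and R3, mt-Nd2 was -0.101, mt-Co2 -0.13 and mt-Nd4 -0.066 in heart, and mt-Co2 was -0.00368 with upper-quartile factors. In muscle, library sizes alone gave -0.13 for mt-Rnr2, -0.031 for mt-Nd2, -0.089 for mt-Tn, -0.089 for mt-Co1, -0.080 for mt-Nd4, -0.019 for mt-Nd5, -0.0995 for mt-Nd6 and -0.13 for mt-Cytb, while the median of all genes moved to -0.16. The summed mitochondrial mRNA gave -0.042 for mt-Rnr2, -0.00315 for mt-Tn, -0.036 for mt-Co1, -0.027 for mt-Nd4, -0.072 for mt-Nd6 and -0.078 for mt-Cytb. Upper-quartile factors gave -0.010 for mt-Rnr2 and -0.014 for mt-Cytb. limma-voom gave 0.13 for mt-Co3, -0.00115 for mt-Nd6 and -0.00691 for mt-Cytb. mt-Tp was 0.017 with no filter and 0.033 in the single fit.

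The difference in the mt-Cytb share between heart groups, 1.53 percentage points, was -0.459 among mRNAs other than mt-Co1. Leaving out single hearts moved mt-Nd2 from -0.067 to 0.17, mt-Co2 from -0.089 to 0.34, mt-Atp6 from -0.10 to 0.35, mt-Nd3 from -0.20 to 0.018 and mt-Tt from -0.25 to 0.074. Leaving out single muscles moved mt-Rnr2 from -0.077 to 0.19, mt-Tn from -0.037 to 0.18, mt-Tc from -0.25 to 0.033, mt-Co1 from -0.036 to 0.16, mt-Atp6 from -0.40 to 0.51, mt-Co3 from -0.32 to 0.24, mt-Nd3 from -0.040 to 1.23, mt-Nd4 from -0.027 to 0.18, mt-Nd5 from -0.060 to 0.25, mt-Nd6 from -0.067 to 0.19, mt-Cytb from -0.063 to 0.10 and mt-Tp from -0.093 to 0.083. The transfer RNAs with few counts and the mRNAs with nuclear copies limit what these libraries can show. No paired analysis was run, since the labels name no pairs and the genotypes share no replicate numbers. In muscle each WT code is next in number to a Taz-KD code, such as A33 and A34. Whether such animals belong together is not stated, and a fit by pairs was not tried.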
